A study of Mus musculus with 18 samples.

Results

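BAFF and APRIL are related cytokines of the tumour necrosis factor family that keep B cells and antibody-secreting cells alive. The genes described here are the 2 ligands, Tnfsf13b (BAFF) and Tnfsf13 (APRIL), and their 3 receptors, Tnfrsf13b (TACI), Tnfrsf13c (the BAFF receptor) and Tnfrsf17 (BCMA). They were chosen by name, with earlier results of these data known, and all 5 were found among the 50584 genes of the deposited count table. All 5 also passed the filter on low counts, which kept 16598 genes.

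BAFF binds all of these receptors, whereas APRIL binds TACI, BCMA and the heparan sulfate chains of proteoglycans. The BAFF receptor carries the survival signal of mature B cells, BCMA supports long-lived plasma cells, and TACI restrains B cell numbers and takes part in class switching. BAFF is made mainly by myeloid cells and is induced by interferons. Mice with an excess of BAFF develop a lupus-like disease.

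RNA was sequenced from the choroid plexus, which lies in the brain ventricles and secretes cerebrospinal fluid, in 18 libraries. Groups were MRL/lpr mice at 12 weeks (6 libraries) and at 16 weeks (6 libraries), and MRL/+ mice at 12 weeks (3 libraries) and at 16 weeks (3 libraries). The MRL/lpr strain has the lpr allele of Fas, a death receptor gene, in all cells and develops lupus-like disease, and MRL/+ mice share the MRL background with an intact Fas. The study concerns lymphoid tissue in the choroid plexus of this model, so the comparisons ask whether these genes differ by strain at 12 and at 16 weeks and by age within a strain, and how they stand to the transcripts of B cells and plasma cells. The labels name no treatment and do not say whether each library is a separate animal, so p-values measure only the spread between these samples.

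Each library held 11164284 to 14602253 counts, and the 10 choroid plexus epithelium markers summed to between 157534 and 315451 CPM (counts scaled to equal library size) in every library. Transcripts of neighbouring tissue varied between libraries, and the 4 libraries with the highest sum of a list are named here. Skeletal muscle markers summed to 515 CPM in MRL/+ replicate 1 of 16 weeks and to at most 4.19 CPM elsewhere, and cerebellum markers were highest in MRL/+ replicate 1 of 12 weeks (290 CPM, others 6.29 to 170 CPM). Pineal markers were highest in MRL/lpr replicate 1 of 12 weeks (98.6 CPM, next 77.9 CPM) and pituitary markers in MRL/lpr replicate 3 of 12 weeks (88.1 CPM, next 85.6 CPM). Fas was at 2.84 ± 1.58 CPM in MRL/lpr and 1.33 ± 0.236 CPM in MRL/+ at 12 weeks (edgeR adjusted p 0.182). It is counted over all exons, so its level does not check the strain label.

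The stretches before the transcription starts of the 3 receptor genes are shown because these genes, which differ in the cells that carry them, all stood higher in MRL/lpr. They are the 250 bases before each RefSeq start on GRCm38.p6, written 5′ to 3′ on the gene's own strand. For Tnfsf13b, RefSeq has a pair of starts 166 bases apart, at 10006467 and 10006633 on chromosome 8, and 30 bases before and across the second start are shown. Capitals mark a pair of GAAA runs with 2 bases between them, on either strand, the letters that interferon regulatory factors bind.

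Tnfsf13b, chr8:10006607-10006636, + strand: tacaaaaactGAAAGTGAAAtgcggaaggc
Tnfrsf13b, chr11:61126505-61126754, + strand: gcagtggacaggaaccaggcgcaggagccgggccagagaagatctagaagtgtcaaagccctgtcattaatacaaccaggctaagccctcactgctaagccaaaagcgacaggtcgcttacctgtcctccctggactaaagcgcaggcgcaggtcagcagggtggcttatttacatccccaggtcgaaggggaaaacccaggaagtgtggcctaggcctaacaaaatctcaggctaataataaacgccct
Tnfrsf13c, chr15:82224381-82224630, − strand: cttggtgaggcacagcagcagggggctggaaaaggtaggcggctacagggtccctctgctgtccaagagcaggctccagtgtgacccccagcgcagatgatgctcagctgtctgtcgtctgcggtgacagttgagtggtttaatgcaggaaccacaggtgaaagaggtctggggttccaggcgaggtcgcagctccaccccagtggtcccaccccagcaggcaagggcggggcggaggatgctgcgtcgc
Tnfrsf17, chr16:11313559-11313808, + strand: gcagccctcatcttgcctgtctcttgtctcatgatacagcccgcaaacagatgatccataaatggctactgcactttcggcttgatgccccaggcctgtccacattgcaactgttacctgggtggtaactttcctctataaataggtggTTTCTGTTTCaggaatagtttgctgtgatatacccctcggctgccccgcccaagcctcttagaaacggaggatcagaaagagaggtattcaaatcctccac

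In Tnfsf13b the match is on the gene's strand and ends 7 bases before the second start. It lies after the first start, and the 250 bases before the first start, not shown, held no match. The Tnfrsf17 match is on the opposite strand and ends 92 bases before the start. Over the 5 genes, 2 of 6 such windows held this pair, against 2.98% of 32851 windows of the same length over all genes. The 2 Tnfsf13b windows among the 6 overlap. None of the 6 held the NF-kB motif (9.55% of all windows) or TTCNNNGAA, with N any base (7.02%), each searched on both strands. A match describes the sequence and is not a measured binding site.

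Tnfsf13b (chromosome 8, 10006467 to 10039072), the BAFF gene, was low in every MRL/+ library. At 12 weeks the MRL/+ libraries stood at 0.381, 0.627 and 0.314 CPM, and at 16 weeks at 0.263, 0.292 and 0.399 CPM. In MRL/lpr the lowest, median and highest library were at 1.13, 2.36 and 4.71 CPM at 12 weeks and at 1.31, 3.71 and 7.0 CPM at 16 weeks. Even the lowest MRL/lpr library was above the highest MRL/+ library at both ages, while the MRL/lpr libraries spread 4.16-fold and 5.34-fold among themselves. Tnfsf13b was 5.99-fold higher in MRL/lpr at 12 weeks (log2 fold change 2.58, SE 0.61, edgeR adjusted p 0.017) and 12.4-fold higher at 16 weeks (3.63, SE 0.66, adjusted p 0.00276). Among all genes tested, the share called in either direction was 6.36% at 12 weeks, split into 5.01% higher and 1.34% lower in MRL/lpr. At 16 weeks it was 11.1%, with 8.49% higher and 2.64% lower, and the median log2 fold change was -0.013 and 0.025. These values stand beside every count of members below.

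Tnfsf13 (chromosome 11, 69682846 to 69685784), the APRIL gene, differed far less. The MRL/+ libraries were at 0.508, 0.549 and 0.628 CPM at 12 weeks, and at 2.02, 0.487 and 0.718 CPM at 16 weeks. In MRL/lpr the lowest, median and highest library were at 0.870, 1.0 and 1.42 CPM at 12 weeks and at 0.901, 1.2 and 1.81 CPM at 16 weeks. At 12 weeks the strains did not overlap, but the difference of 0.95 on the log2 scale (SE 0.39) did not pass (edgeR adjusted p 0.165). At 16 weeks they overlapped, with a difference of 0.27 (SE 0.37, adjusted p 0.631). The highest Tnfsf13 level of all 18 libraries, 2.02 CPM from 23 counts, was in the MRL/+ library with skeletal muscle transcripts, and without it the difference at 16 weeks was 1.09 (adjusted p 0.097). That library was also the highest MRL/+ library in the 7 neutrophil markers (10.4 CPM, other MRL/+ libraries 1.75 to 3.06 CPM). The part of muscle or neutrophil transcripts in that level was not tested.

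Counts of Tnfsf13 are also less certain than those of the other genes. Only 654 of its 1637 exon bases (40.0%) belong to it alone in the gene annotation. It shares 983 bases with Tnfsfm13, a joint transcript of Tnfsf12 and Tnfsf13, and 221 with the antisense gene Tnfsf13os, and the strand setting of the counting is not given in the sources used here. Tnfsfm13 held 24 and 26 counts over the MRL/lpr libraries of 12 and 16 weeks and 8 and 11 over those of MRL/+, and Tnfsf13os held 48 and 36 against 6 and 15. With Tnfsfm13 added, a choice made after seeing the data, the strain differences were 0.90 (adjusted p 0.144) and 0.22 (adjusted p 0.67). Tnfsf12 (TWEAK), the upstream neighbour, differed by 0.69 (adjusted p 0.324) and 0.96 (adjusted p 0.131). None of the other 4 genes shares an exon base with another gene.

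Tnfrsf13b (chromosome 11, 61126755 to 61149372), the TACI gene, gave the most counts of the 3 receptors. The MRL/+ libraries stood at 0.254, 0.235 and 0.706 CPM at 12 weeks and 0.175, 0.780 and 0.319 CPM at 16 weeks, which is 2 to 9 counts each. The MRL/lpr libraries ran from 2.35 through a median of 3.61 to 9.63 CPM at 12 weeks, and from 1.07 through 7.77 to 10.9 CPM at 16 weeks. No MRL/lpr library reached down to the MRL/+ libraries of its age. TACI was 12.0-fold higher in MRL/lpr at 12 weeks (log2 fold change 3.59, SE 0.80, edgeR adjusted p 0.0124; 4.25 without MRL/+ replicate 3) and 16.1-fold higher at 16 weeks (4.01, SE 0.82, adjusted p 0.00527; 4.73 without MRL/+ replicate 2).

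Tnfrsf13c (chromosome 15, 82221744 to 82224339), the gene of the BAFF receptor, was almost absent from MRL/+. Its 3 MRL/+ libraries of 12 weeks held 1, 0 and 1 counts, and all 3 of 16 weeks held 0. In MRL/lpr the lowest, median and highest library were at 0.723, 1.35 and 6.49 CPM at 12 weeks and at 0.164, 2.45 and 8.07 CPM at 16 weeks. A single library stood above the rest at each age, replicate 6 at 12 weeks with 95 counts and replicate 1 at 16 weeks with 125 counts, and replicate 6 of 16 weeks held only 2 counts. The pooled counts, 176 in MRL/lpr and 2 in MRL/+, gave a depth-scaled ratio of 45.6 at 12 weeks (exact 95% interval 12.4 to 380, edgeR adjusted p 0.0359). The fitted log2 fold change of 5.21 fell to 4.44 without MRL/lpr replicate 6 (adjusted p 0.0415). At 16 weeks, 249 pooled counts against 0 made Tnfrsf13c at least 36.4-fold higher in MRL/lpr, taking 3 counts over the MRL/+ group as the limit that a count of 0 allows (adjusted p 0.0107). The fitted log2 fold change there, 8.26, was 7.65 without MRL/lpr replicate 1 (adjusted p 0.0167). Intervals and limits of this kind cover counting error only.

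Tnfrsf17 (chromosome 16, 11313812 to 11320074), the gene of BCMA, had the lowest mean CPM of the 3 receptors in MRL/lpr, 0.711 ± 0.289 at 12 weeks and 1.13 ± 0.872 at 16 weeks. At 12 weeks the MRL/+ libraries gave 1, 0 and 0 counts, and at 16 weeks 1, 0 and 2. The MRL/lpr libraries ran from 0.348 through a median of 0.777 to 1.02 CPM at 12 weeks, and from 0.246 through 1.05 to 2.71 CPM at 16 weeks. All 12 MRL/lpr libraries were above the MRL/+ libraries of their age, and replicate 2 stood highest at 16 weeks with 35 counts. The ratio of pooled counts was 29.6 at 12 weeks (exact 95% interval 5.10 to 1188, edgeR adjusted p 0.0135) and 13 at 16 weeks (4.31 to 64.3, adjusted p 0.0129).

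**Figure D1:**
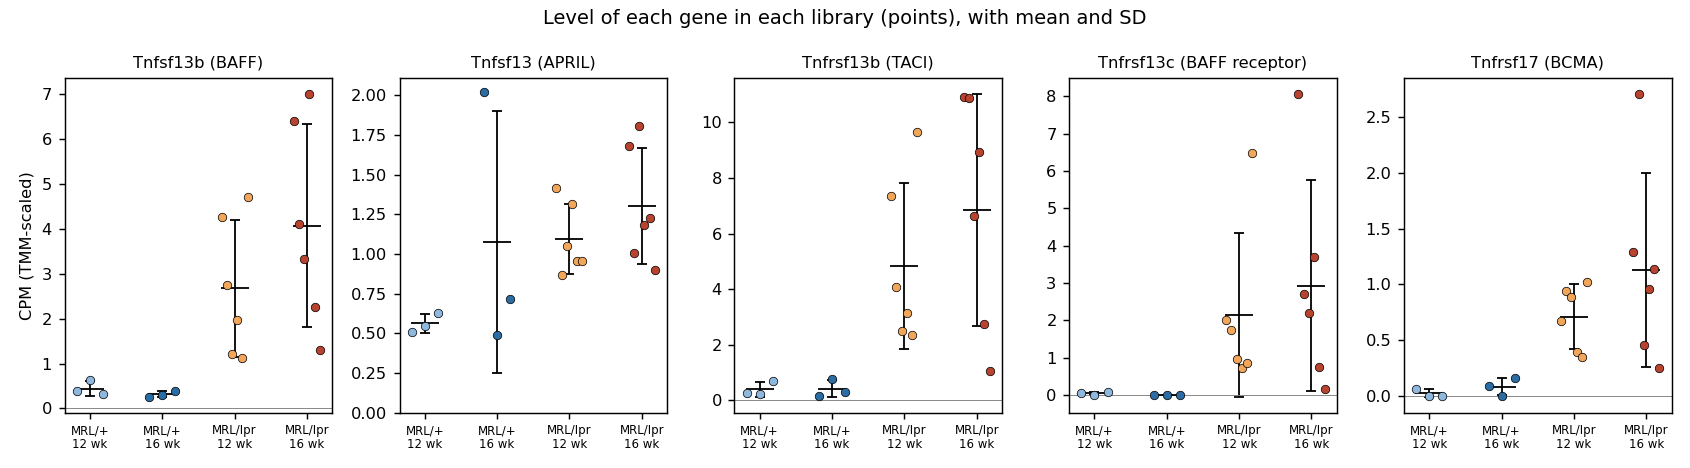
CPM of each gene (linear axis, own scale per panel) in each library (points) by strain and age, with mean and SD (n = 3 for MRL/+, n = 6 for MRL/lpr). At 12 weeks the MRL/lpr points lie above the MRL/+ points for every gene, and at 16 weeks for every gene but Tnfsf13. Tnfsf13 has its highest point, 2.02 CPM, in MRL/+ at 16 weeks.

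Of the 5 genes, 4 were thus called higher in MRL/lpr at both ages and 0 lower, beside 5.01% and 8.49% of all genes called higher. Those 4 reached the filter's minimum of 0.765 CPM (before TMM scaling) only in MRL/lpr libraries, so their passing the filter and their direction are not independent. The share of all genes tested whose strains do not overlap was not counted, so the lack of overlap of the members has no such value beside it. Removing single MRL/+ libraries ended calls at 12 weeks. None of the 4 passed without replicate 1 (adjusted p 0.0993 for Tnfsf13b, 0.0879 for Tnfrsf13b, 0.136 for Tnfrsf13c and 0.0542 for Tnfrsf17) or without replicate 2 (0.0558, 0.0784, 0.141 and 0.0762 in the same order). Without replicate 3 only Tnfrsf13b passed (0.0429), beside 0.104 for Tnfsf13b, 0.127 for Tnfrsf13c and 0.0802 for Tnfrsf17. The fitted log2 fold change of Tnfrsf17 at 12 weeks, 4.43, was 6.20 without replicate 1, the 1 MRL/+ library of that age with a count of it. Tnfrsf13c also lost its call without MRL/lpr replicate 1 (0.0575).

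At 16 weeks the calls of both Tnfsf13b and Tnfrsf13b were kept in all 9 fits that left out 1 library. Tnfrsf17 lost its call without MRL/+ replicate 1 (adjusted p 0.0639) or replicate 2 (0.0667), and its log2 fold change of 3.57 was 4.37 without replicate 3. Tnfrsf13c lost its call without MRL/+ replicate 3 (0.0561). Without the 4 libraries that were highest in neighbouring tissue markers, Tnfsf13b alone passed at 16 weeks (3.52, adjusted p 0.0378) and none passed at 12 weeks, where the 4 genes differed by 2.52 to 6.17 with adjusted p from 0.13 to 0.207. In that fit MRL/+ had 2 libraries per age.

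**Figure D2:**
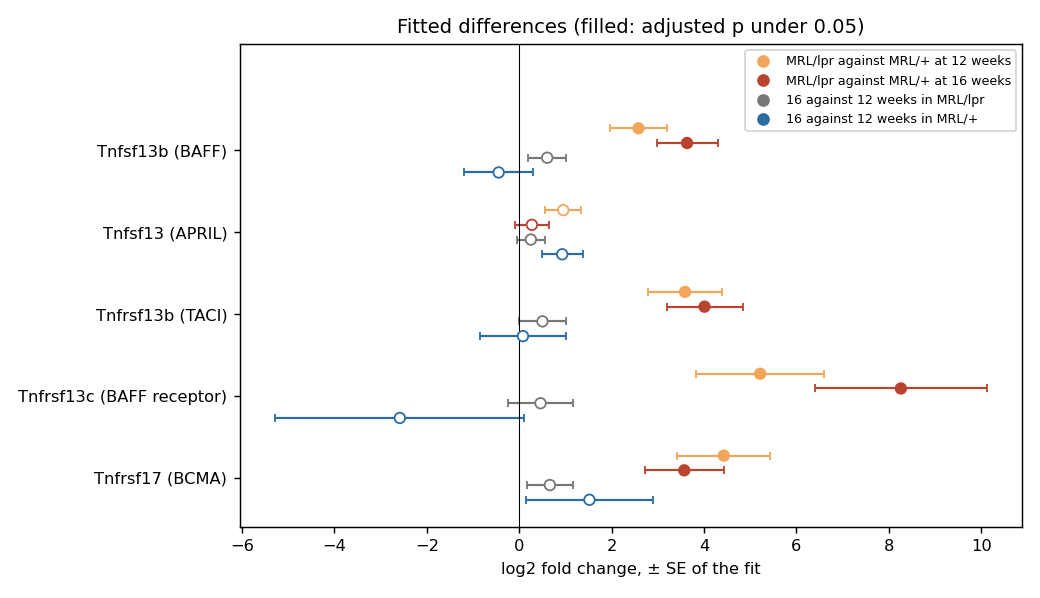
Log2 fold change ± SE of the fit for each gene in 4 comparisons, with filled points at an adjusted p under 0.05. Both strain comparisons are filled for Tnfsf13b, Tnfrsf13b, Tnfrsf13c and Tnfrsf17, and no age comparison is filled.

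Between 12 and 16 weeks none of the 5 genes passed in either strain. In MRL/lpr the fitted differences were all above 0, at 0.61 for Tnfsf13b (edgeR adjusted p 0.801), 0.25 for Tnfsf13 (0.856), 0.50 for Tnfrsf13b (0.839), 0.46 for Tnfrsf13c (0.884) and 0.66 for Tnfrsf17 (0.819). They were smaller than the spread between libraries, and of all genes tested 0.0361% (6 genes, 0.0181% in each direction) were called in that comparison. In MRL/+ the values were -0.45 for Tnfsf13b (adjusted p 0.795), 0.93 for Tnfsf13 (0.38) and 0.08 for Tnfrsf13b (0.981), with 3 or fewer pooled counts behind Tnfrsf13c and Tnfrsf17 at each age. No gene was called in MRL/+ by edgeR (0%, with 2173 genes at an unadjusted p under 0.05, 10 genes by DESeq2 and 1724 by voom with sample weights). Whether the strain difference itself changed with age was tested as an interaction, which called none of the 5 (lowest adjusted p 0.502, for Tnfsf13) and 0% of all genes (2286 at an unadjusted p under 0.05, and none by DESeq2).

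Replicate 6 of MRL/lpr at 16 weeks was the lowest of its group in all 5 genes. It was also lowest in the transcripts of B cells, plasma cells, macrophages and the interferon response. Without it the strain differences at 16 weeks were 3.82 for Tnfsf13b (adjusted p 0.000576), 4.24 for Tnfrsf13b (0.000815), 8.51 for Tnfrsf13c (0.00272) and 3.78 for Tnfrsf17 (0.00366).

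Levels of different genes were compared per length, as CPM per kb of exon. In MRL/lpr, TACI led with 1.71 ± 1.05 CPM per kb at 12 weeks and 2.42 ± 1.47 at 16 weeks (mean ± SD, n = 6). Within libraries it was above the BAFF receptor in 6 of 6 at 12 weeks and 5 of 6 at 16 weeks, and above BCMA in 5 of 6 at both ages. BAFF receptor (1.06 ± 1.09 and 1.45 ± 1.40) and BCMA (0.872 ± 0.354 and 1.39 ± 1.07) did not differ beyond their spread, with the BAFF receptor higher in 3 of 6 libraries at each age.

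The ligands had lower group means per length than the receptors in MRL/lpr, but within libraries this did not hold for Tnfsf13. It was above Tnfrsf13c in 3 of 6 libraries at each age. It was above Tnfrsf17 in 3 of 6 at 12 weeks and 2 of 6 at 16 weeks, and above Tnfrsf13b in 0 and 1 of 6. Tnfsf13 stood at 0.668 ± 0.135 and 0.795 ± 0.223 CPM per kb in MRL/lpr and Tnfsf13b at 0.389 ± 0.223 and 0.592 ± 0.328. Tnfsf13b was below Tnfrsf13b in all 12 MRL/lpr libraries, and above Tnfsf13 in 1 of 6 libraries at each age. These orders depend on the lengths, which sum all annotated exons, 6868 bases for Tnfsf13b and 1637 for Tnfsf13. In CPM, Tnfsf13b was above Tnfsf13 in every MRL/lpr library (means 2.67 and 4.07 against 1.09 and 1.30). In MRL/+ the order per length was different, with Tnfsf13 above each of the other 4 genes in 3 of 3 libraries at both ages. Its level per own kb, counting the 654 bases that belong to it alone, would be 1.67 ± 0.337 and 1.99 ± 0.558 in MRL/lpr if no read of the shared bases had been counted, so its place above or below the receptors rests on how shared reads were treated.

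Of the length-scaled sum of the 3 receptors, TACI made up 47.6 ± 9.02% at 12 weeks and 46.8 ± 8.25% at 16 weeks in MRL/lpr. The BAFF receptor made up 25.3 ± 8.14% and 23.3 ± 12.1%, and BCMA 27.1 ± 10.5% and 29.95 ± 15.3%. The makeup varied more between libraries than between the ages: BCMA ranged from 16.0% to 44.4% at 12 weeks and from 14.0% to 50.9% at 16 weeks.

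**Figure D3:**
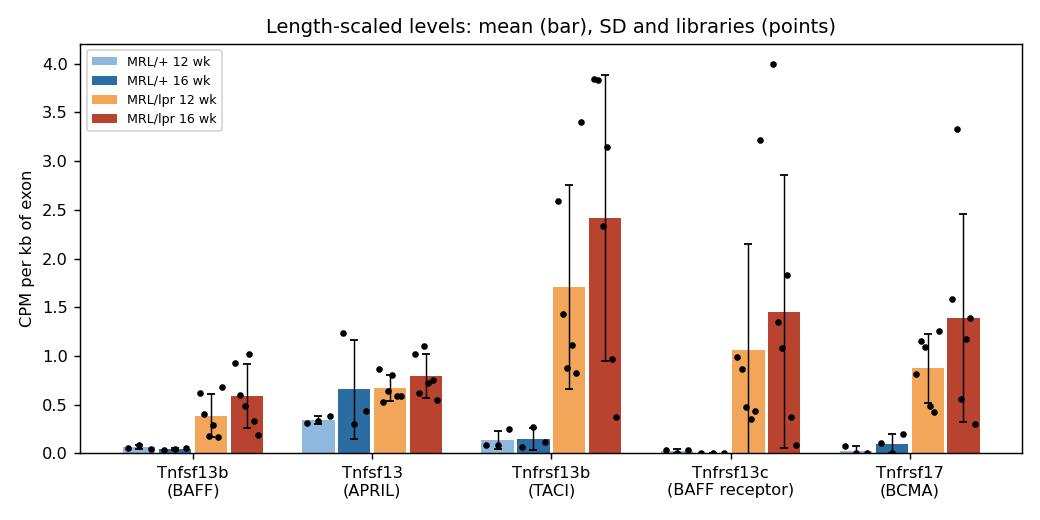
CPM per kb of exon of each gene by strain and age, with bars for group means, error bars for SD and a point for each library (linear axis from 0). Tnfrsf13b is the tallest in MRL/lpr, at 1.71 and 2.42 CPM per kb, and Tnfsf13 is the tallest in MRL/+.

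The receptors were set against the cells that carry them by counting each gene per 100 counts of a cell type's own markers. The B cell signal was the sum of 4 genes of the B cell surface and antigen receptor, with Ms4a1 (CD20), Cd79a and Cd79b among them. In MRL/lpr it held 3041 pooled counts at 12 weeks and 3610 at 16 weeks, and in MRL/+ 11 and 14. The plasma cell signal was the sum of Jchain, Mzb1 and Derl3, which serve antibody assembly and secretion, with 46004 and 97802 counts in MRL/lpr and 155 and 156 in MRL/+. In bulk RNA, more cells of a type and more RNA per cell cannot be told apart.

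The BAFF receptor kept close to the B cell signal. In MRL/lpr it stood at 5.79 per 100 B cell counts at 12 weeks (exact 95% interval 4.94 to 6.74) and 6.90 at 16 weeks (6.04 to 7.84). Single libraries ran from 3.42 through a median of 5.74 to 7.43 at 12 weeks, and from 3.83 through 6.39 to 7.92 at 16 weeks. The 12 libraries thus lay within a narrow band, whereas the Tnfrsf13c level itself spread 8.98-fold at 12 weeks and 49.2-fold at 16 weeks. The difference between the ages was 0.22 on the log2 scale and did not pass (exact two-sided permutation p 0.355, adjusted p 0.771 over 10 ratios). In MRL/+ the pooled counts were 2 per 11 B cell counts at 12 weeks and 0 per 14 at 16 weeks, which allows up to 30.1 per 100, so a difference in this ratio between the strains was not detectable at this depth.

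Across the 6 MRL/lpr libraries of an age, log2 CPM of Tnfrsf13c rose with the B cell signal, with Pearson r 0.901 at 12 weeks and 0.979 at 16 weeks (exact permutation adjusted p 0.0333 and 0.0278 over 40 pairs of gene, signal and age). Spearman's rho was 0.943 and 1.0 (exact permutation adjusted p 0.0667 and 0.037), and r was 0.660 and 0.928 without the 2 libraries farthest from the median signal. The macrophage signal gave values nearly as high, r 0.855 and 0.952 (exact permutation adjusted p 0.0333 and 0.0278), or 0.496 and 0.822 without those 2 libraries. Both signals come from the same libraries, and a relation to B cells apart from macrophages was not tested.

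In pooled counts, TACI per B cell count was higher in MRL/+ than in MRL/lpr. It stood at 12.9 per 100 B cell counts at 12 weeks (exact 95% interval 11.5 to 14.3) and 15.5 at 16 weeks (14.2 to 17) in MRL/lpr. In MRL/+ it stood at 145 (63.4 to 347) at 12 weeks, and at 16 weeks its counts equalled the B cell counts, 14 against 14 (exact 95% interval 44.2 to 226 per 100). The MRL/+ intervals lie wholly above those of MRL/lpr, although they rest on 16 and 14 counts of Tnfrsf13b and cover counting error only. Single MRL/+ libraries ran from 75 to 450 per 100 at 12 weeks and from 40 to 200 at 16 weeks. At 12 weeks the B cell signal averaged 0.263 CPM in MRL/+ and 37.8 CPM in MRL/lpr, against 0.398 and 4.84 CPM for Tnfrsf13b. A gene that differs less than the B cell signal has a higher ratio in MRL/+. This ratio was not tested between the strains, since the MRL/+ libraries hold too few B cell counts. Within MRL/lpr its difference between ages, 0.40 on the log2 scale, did not pass (exact permutation p 0.245, adjusted p 0.771). Its correlation with the B cell signal was 0.900 at 12 weeks (exact permutation adjusted p 0.0648, r 0.230 without the 2 farthest libraries) and 0.943 at 16 weeks (0.0333 and 0.856). With the plasma cell signal it was 0.659 at 12 weeks (exact permutation adjusted p 0.2) and 0.922 at 16 weeks (0.0333, r 0.660 without the 2 farthest). With the macrophage signal it was 0.958 and 0.920 (exact permutation adjusted p 0.0333 at both ages, r 0.639 and 0.418 without the 2 farthest), the only TACI pair that passed at 12 weeks. The 12-week relation to B cells thus rests on those 2 libraries.

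BCMA was set against the plasma cell signal. In MRL/lpr it stood at 0.124 per 100 plasma cell counts at 12 weeks (exact 95% interval 0.0938 to 0.161) and 0.0910 at 16 weeks (0.0731 to 0.112). Single libraries ran from 0.0894 through a median of 0.122 to 0.167 at 12 weeks, and from 0.0556 through 0.106 to 0.246 at 16 weeks. The highest ratio belonged to replicate 6 of 16 weeks, with 3 counts of Tnfrsf17 and the weakest plasma cell signal of the group, and the lowest to replicate 1, with the strongest. The age difference of -0.19 on the log2 scale did not pass (exact permutation p 0.617, adjusted p 0.771). Tnfrsf17 and the plasma cell signal correlated with r 0.878 at 12 weeks and 0.873 at 16 weeks (exact permutation adjusted p 0.0648 and 0.063), and with r -0.241 and 0.915 without the 2 farthest libraries, so the first rests on those libraries. In MRL/+, 1 and 3 counts of Tnfrsf17 stood against 155 and 156 plasma cell counts.

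The ligands were set against the B cell and the plasma cell signal in the same way. In MRL/lpr, Tnfsf13b stood at 7.10 per 100 B cell counts at 12 weeks and 9.17 at 16 weeks, against 164 (exact 95% interval 73.2 to 383) and 78.6 (32.3 to 186) in MRL/+. Tnfsf13 stood at 2.86 and 2.85 in MRL/lpr against 209 (97.9 to 475) and 264 (139.6 to 529) in MRL/+. Both ligands thus had higher pooled ratios to B cell transcripts in MRL/+, where B cell counts were 14 or fewer. As for TACI, any gene that differs less than the B cell signal has a higher ratio in MRL/+. These ratios were not tested between the strains, and the intervals cover counting error only. Over the plasma cell signal Tnfsf13b was at 0.470 and 0.338 per 100 in MRL/lpr and at 11.6 and 7.05 in MRL/+. None of the 10 ratios of the 5 genes to both signals differed between the ages in MRL/lpr (exact permutation adjusted p 0.771 to 1.0).

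Since BAFF is made mainly by myeloid cells, the ligands were also set against a macrophage signal, the sum of Csf1r, Adgre1, Itgam and Cd68. It held 6524 and 8936 pooled counts in MRL/lpr and 929 and 725 in MRL/+. Tnfsf13b stood at 1.61, 2.76 and 1.5 per 100 macrophage counts in the MRL/+ libraries of 12 weeks and at 1.2, 1.17 and 2.29 in those of 16 weeks. In MRL/lpr the lowest, median and highest library were at 1.90, 3.41 and 4.02 at 12 weeks and at 3.16, 3.68 and 4.85 at 16 weeks. The strains overlapped at 12 weeks and did not at 16 weeks, when BAFF per macrophage count was 2.24-fold higher in MRL/lpr. That exact permutation p, 0.012, is the smallest that 6 against 3 libraries can give, and it did not pass after adjustment over 8 ratios (adjusted p 0.0952). At 12 weeks the ratio was 1.55-fold higher (exact permutation p 0.0476, adjusted p 0.127).

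APRIL per macrophage count went the other way. It stood at 2.15, 2.41 and 3.00 in MRL/+ at 12 weeks and at 9.20, 1.95 and 4.13 at 16 weeks. In MRL/lpr the lowest, median and highest library were at 0.685, 1.44 and 2.5 at 12 weeks and at 0.667, 1.33 and 2.63 at 16 weeks. The log2 differences, -0.82 at 12 weeks and -1.68 at 16 weeks, did not pass (exact permutation p 0.107 and 0.0476, adjusted p 0.214 and 0.127). The value of 9.20 belongs to the library with skeletal muscle transcripts and the highest MRL/+ sum of neutrophil markers.

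With the mean log2 CPM of the full list of 12 macrophage markers in place of the 4, 3 of the 8 ratios passed. Tnfsf13b at 16 weeks was then 0.70 higher in MRL/lpr, and Tnfsf13 was 1.53 and 2.14 lower at 12 and 16 weeks (each exact permutation adjusted p 0.0317). Under that measure Tnfsf13b at 12 weeks was at -0.08, so its direction there depends on the markers used. At 16 weeks its direction was the same with both measures.

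**Figure D4:**
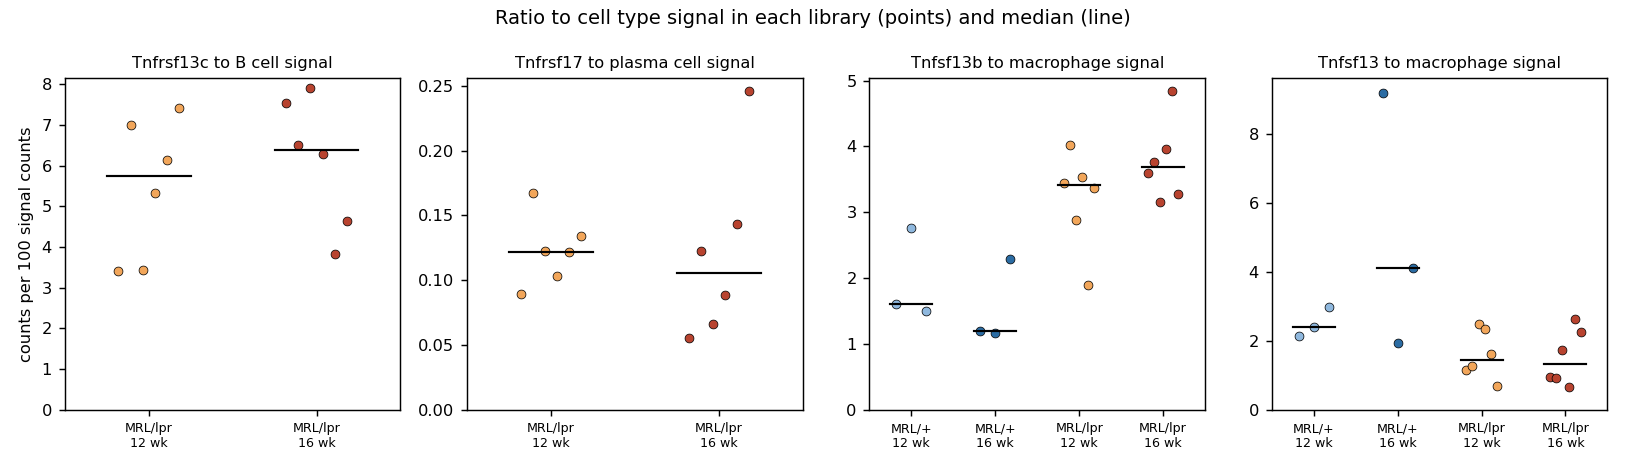
Counts of a gene per 100 counts of a cell type signal in each library (points) with the group median (line), on linear axes from 0, for Tnfrsf13c to B cells, Tnfrsf17 to plasma cells and both ligands to macrophages. The 12 MRL/lpr libraries lie between 3.42 and 7.92 for Tnfrsf13c, and the strains separate for Tnfsf13b at 16 weeks.

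Among the 6 MRL/lpr libraries of 16 weeks, Tnfsf13b rose with the macrophage signal (r 0.972, rho 0.943, exact permutation adjusted p 0.0278 and 0.0667, r 0.975 without the 2 farthest libraries). It rose in the same way with the B cell signal (r 0.952, exact permutation adjusted p 0.0278, and 0.980 without those 2). At 12 weeks r was 0.917 with macrophages and 0.807 with B cells (exact permutation adjusted p 0.063 and 0.114), falling to 0.653 and 0.141 without the 2 farthest. With the summed CPM of 15 interferon response genes r was 0.825 and 0.810 at the 2 ages (exact permutation adjusted p 0.152 and 0.108). Without the 2 libraries farthest from the median of that signal, it was 0.896 and 0.549. No pair of Tnfsf13 passed: its r lay between -0.030 and 0.148 at 12 weeks and between 0.435 and 0.590 at 16 weeks. Of the 40 pairs in all, 11 passed by Pearson's r on the log2 scale, 8 on the CPM scale and 3 by Spearman's rho. Those 3, all at 16 weeks, were Tnfrsf13b with the interferon genes and Tnfrsf13c with the B cell and the macrophage signal.

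**Figure D5:**
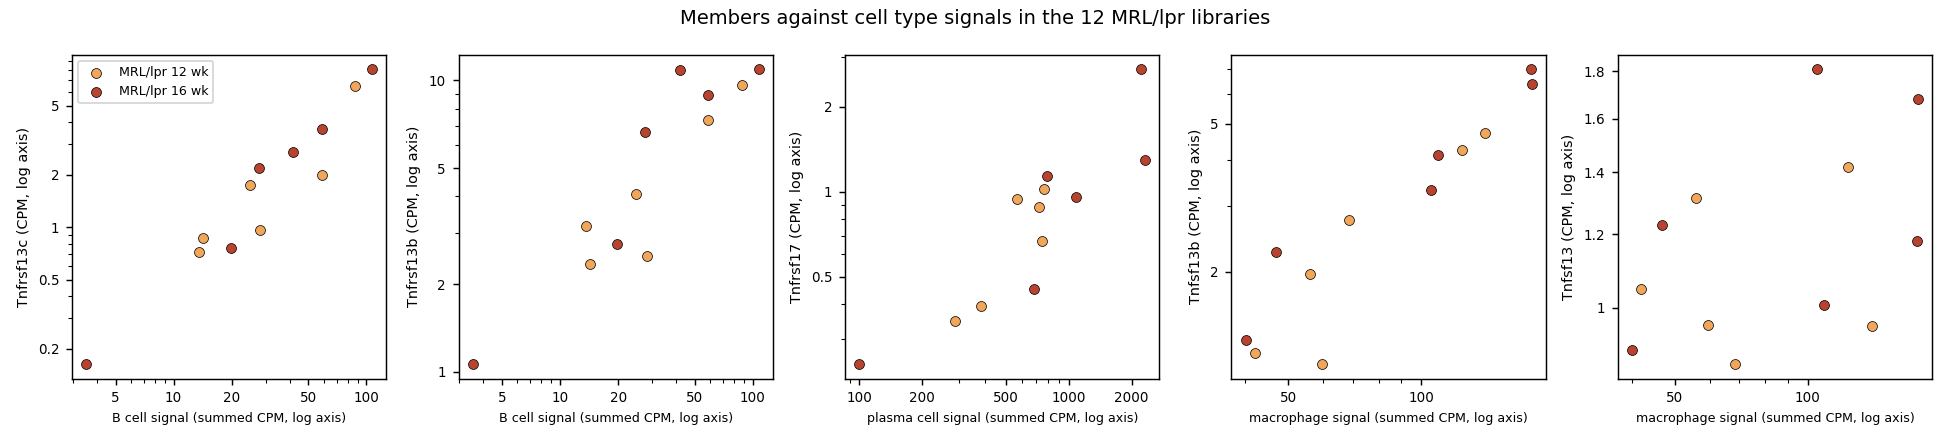
Level of a gene (CPM, log axis) against the summed CPM of a cell type signal (log axis) in the 12 MRL/lpr libraries, coloured by age. Of the pairs shown, Tnfrsf13c with the B cell signal passed by Pearson's r at both ages. Tnfrsf13b with the B cell signal and Tnfsf13b with the macrophage signal passed at 16 weeks only. Tnfrsf17 with the plasma cell signal and Tnfsf13 with the macrophage signal passed at neither age.

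Among themselves, over the 12 MRL/lpr libraries with each age centred on its mean, Tnfrsf13b and Tnfrsf13c were most alike (r 0.94), followed by Tnfsf13b and Tnfrsf13b (0.93) and Tnfsf13b and Tnfrsf13c (0.89). Tnfrsf17 was less like these 3 genes (0.54 to 0.66), and Tnfsf13 less still (0.34 to 0.39, and -0.12 with Tnfrsf17). These are descriptions over libraries that share their depth and cell content. The genes most like Tnfsf13b were Unc13d, needed for release of cytotoxic granules (0.98), Cp, the copper carrier ceruloplasmin (0.98), and Bcl2l11, the proapoptotic BIM (0.97). Those most like Tnfrsf13b were Zc3h12d, an RNA-binding regulator (0.99), Psd4 (0.99) and the T cell kinase Lck (0.99). Tnfrsf13c was most like the proliferation marker Mki67 (0.99), Dtx3l (0.99) and the lymphocyte transcription factor Ikzf3 (0.98). Tnfrsf17 was most like Mppe1 (0.93), Hps3 (0.91) and Ccng2 (0.90), and Tnfsf13 like the ribosome assembly factor Rrs1 (0.86), the kinase Chek2 (0.83) and Lrrc27 (0.82).

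Downstream of the receptors, TRAF adaptors and the kinases of the canonical and the alternative NF-kB pathway carry the signal. Of 16 tested genes of this group, 3 rose at 12 weeks and 4 at 16 weeks, and 0 fell, with a median log2 fold change of 0.10 and 0.42. The adaptor Traf1, itself an NF-kB target, was at 13.2 ± 8.05 CPM in MRL/lpr and 2.84 ± 0.806 CPM in MRL/+ at 12 weeks (log2 fold change 2.21, edgeR adjusted p 0.0402), and differed by 3.12 at 16 weeks (0.00609). Birc3, a ubiquitin ligase that acts with the TRAFs, rose by 1.73 and 1.98 (adjusted p 0.0217 and 0.0081). Nfkb2, the precursor that the alternative pathway cleaves, was at 18.6 ± 11.7 CPM against 4.65 ± 0.689 CPM at 16 weeks (2.0, adjusted p 0.019), but did not pass at 12 weeks (1.51, adjusted p 0.0813), where it passed with DESeq2 (0.0157) and voom (0.0347). With only the groups compared its 16-week call ended (0.052). Birc2, another such ligase, passed at 12 weeks (0.60, adjusted p 0.0287) and not at 16 weeks (0.28, adjusted p 0.24), but lost the first with only the groups compared (0.0991) and passed at 16 weeks with epithelium scaling (0.77, 0.0141). The fourth gene that rose at 16 weeks, named after its values were seen, was the kinase Ikbkb (0.60, adjusted p 0.0442). Without a filter Traf1 lost its call at 12 weeks (0.0909). Single libraries decided several of these calls: Traf1, Birc3 and Birc2 kept their calls at 12 weeks in 4, 6 and 5 of 9 fits that left out 1 library, and Traf1, Birc3 and Nfkb2 at 16 weeks in 8, 8 and 6 of 9.

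Survival genes of the BCL2 family and the kinase Pim2 act downstream of BAFF. Of 8 tested, 3 rose at 12 weeks and 5 at 16 weeks (median 0.53 and 0.93). The antiapoptotic Bcl2a1a rose by 5.26 and 5.57 on the log2 scale (edgeR adjusted p 0.00516 and 0.0027) and Bcl2a1b by 4.35 and 4.54 (0.00587 and 0.00315), the latter with 0.0527 at 12 weeks without MRL/+ replicate 1. Bcl2a1d rose by pooled count ratios of 62.8 (exact 95% interval 11.1 to 2499, adjusted p 0.0143) and 53.0 (9.34 to 2112, adjusted p 0.0149), and passed in 6 of 9 such fits at each age. These 3 genes are near-identical copies, so their counts may include each other's reads. Bcl2 was at 28.1 ± 5.61 CPM against 27.7 ± 1.58 CPM at 12 weeks (0.02, adjusted p 0.949) and rose by 0.58 at 16 weeks (adjusted p 0.0295), a call kept in 3 of 9 fits and lost without a filter (0.0509) and with the replicate block (0.0959). The other gene that rose at 16 weeks was the proapoptotic Bcl2l11 (1.29, adjusted p 0.0449), named here after its values were seen.

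Genes that cut the ligands and receptors, furin, the ADAM proteases and the gamma-secretase subunits, gave no call. By edgeR 0 of 9 passed at either age, also 0 at an unadjusted p under 0.05, and their medians of -0.03 and 0.03 lay close to those of all genes. Of 6 proteoglycans that can bind APRIL, 0 passed at 12 weeks and 1 at 16 weeks (medians -0.11 and 0.18). That gene, Sdc3, a syndecan, was at 30.3 ± 17.6 CPM against 5.86 ± 1.92 CPM (2.37, adjusted p 0.0329), kept its call in 3 of 9 fits, lost it without a filter (0.0838), and stood at 0.21 at 12 weeks (adjusted p 0.864).

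Of 10 tested neighbouring members of the TNF family, 7 rose at 12 weeks and 8 at 16 weeks, and the 2 that passed at neither age were Tnfsf12 and Tnfrsf12a, the receptor of TWEAK. The list's median was 4.99 and 6.01, or 3.83 and 4.09 with genes at 0 in MRL/+ set to their lower bound. Ltb, lymphotoxin beta, rose to 20.9 ± 15.6 CPM from 0.263 ± 0.0918 CPM at 12 weeks and Cd40, the B cell receptor for T cell help, to 5.98 ± 4.04 CPM from 0.509 ± 0.118 CPM. Tnfsf10 (TRAIL) rose by 3.23 and 4.14 on the log2 scale (edgeR adjusted p 0.0132 and 0.00317), and Tnfsf8 (CD30 ligand) by pooled count ratios of 84 (exact 95% interval 23.1 to 697, adjusted p 0.00862) and 70.6 (24 to 343, adjusted p 0.00554). At 12 weeks the calls of Cd40, Tnfsf10 and Tnfsf8 were each lost without any 1 of the 3 MRL/+ libraries. That of Ltb was lost in none of the 9 fits. Ltb and Tnfsf8 had MRL/+ means under the filter's 0.765 CPM at both ages, so their passing the filter and their direction are not independent.

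Interferon response genes, which mark a known inducer of BAFF, rose in 5 of 15 at 12 weeks and 15 of 15 at 16 weeks (median 3.23 and 5.07). Cxcl10, a chemokine, was at 12.3 ± 8.25 CPM against 0.0522 ± 0.0905 CPM at 12 weeks (edgeR adjusted p 0.00477), a call that ended with voom (0.0595). Ifi44 rose by 4.25 at 12 weeks (adjusted p 0.0438), a call kept in 2 of 9 fits and lost with voom (0.0691) and without a filter (0.13). Oas1a differed by 3.18 at 12 weeks (adjusted p 0.087), passed there with DESeq2 (0.00574) and with only the groups compared (0.0225), and rose by 6.66 at 16 weeks (adjusted p 0.0041). The count at 12 weeks thus depends on the fit. No gene of the list was called between the ages in MRL/lpr. The summed interferon level of that strain ran from 71.0 to 2225 CPM at 16 weeks, with replicate 1 highest.

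Of 5 tested germinal centre genes only Gcsam rose, by 3.56 and 3.51 (edgeR adjusted p 0.0131 and 0.00983; lost without any 1 MRL/+ library at 12 weeks and without replicate 1 or 2 at 16 weeks), with medians of 0.78 and 0.55. With only the groups compared its call at 16 weeks ended (0.0522). Fas, the gene with the lpr allele, is among the 5 tested genes and counts in the medians. Without the 4 libraries named for neighbouring tissue, 0 of the 14 pathway genes taken by smallest p and called at 12 weeks passed (adjusted p 0.0813 to 0.312), and 7 of 17 passed at 16 weeks.

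Markers of the cells that carry the receptors or make the ligands moved with the 4 called genes. Of 13 tested B cell markers 9 and 10 rose at the 2 ages, and all 14 summed to between 27.5 and 161 CPM in MRL/lpr at 12 weeks and between 1.65 and 3.06 CPM in MRL/+. Of 12 plasma cell markers 8 rose at both ages (498 to 1166 CPM against 212 to 216 CPM at 12 weeks), and of 12 macrophage markers 7 and 10 rose (487 to 2969 CPM against 75.1 to 85.1 CPM). Of 8 dendritic cell markers 4 and 6 rose, of 3 tested neutrophil markers only Csf3r, and of 9 T cell markers all 9. Of 10 choroid plexus epithelium markers 0 rose, 0 fell at 12 weeks and 1 fell at 16 weeks, Prlr. Ms4a1 had no count in MRL/+ at 12 weeks and 3 counts at 16 weeks. Like the 4 called genes, Ms4a1 and other list genes near 0 in MRL/+ passed the filter only through MRL/lpr libraries. For such genes, passing the filter and direction are not independent, so the counts of list genes that rose are not separate support. The part of these cells in the levels of the 5 genes was not tested.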

How the data were processed

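Per the submitters' processing notes, the tools were STAR 2.5.3a, featureCounts 1.26.0 and DESeq2 1.16.1, with the build GRCm38. The authors deposited raw counts per gene. The annotation release, the strand setting and the handling of reads with several alignments or shared exons: not given in the sources used here. Positions, exons and lengths come from the deposited table, and sequences from RefSeq GRCm38.p6, which matched all 5 genes.

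Groups were taken from the labels. All 18 libraries were fitted together with edgeR 4.0.16 in R 4.3.3 (filterByExpr by group, TMM scaling, robust quasi-likelihood test, 1 mean per group), with Benjamini-Hochberg adjustment over 16598 genes and calls at an adjusted p under 0.05. The fit was tested on simulated data. CPM are TMM-scaled, and group values are mean ± SD. A gene with 1 to 3 pooled MRL/+ counts is given as a ratio of pooled counts, and one with 0 as a bound against 3 counts. Ratios to a signal were tested on log2 values with 0.5 counts added, and correlations on log2 CPM (prior count 2). Intervals cover counting error only. In 36 pairs of libraries of a group the smallest chi-square per gene was 6.10, so none was 1 library deposited under 2 names.

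The 5 members and the gene lists were chosen with earlier results of these data known. Named pathway genes are up to 4 per list with the smallest p among those called in a strain comparison. Named similar genes are the 3 with the highest correlation with a member among genes whose mean log2 CPM is 1 or more, without unnamed models and receptor segments. A B cell and an interferon response gene, which count in their lists and sums, are not reported here singly. Alternatives were DESeq2 1.42.0, voom with sample weights (limma 3.58.1), no filter, only the groups compared, scaling to choroid plexus epithelium markers, a replicate block, leaving out libraries, other offsets and other markers of a signal.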

Additional observations from a re-analysis of the deposited data

Results flagged for a closer look

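In 40 sets of 6 MRL/lpr libraries that were checked for a library far from the others, 3 had one. How many such libraries chance would give was not tested, since the sets share libraries and counts and are not independent. Tnfrsf13c stood at 6.49 CPM in replicate 6 of 12 weeks, above the 0.723 to 2.0 CPM of the other 5 libraries. Its gap to the next library was 0.778 of the range on the CPM scale and 0.536 on the log2 scale, where it would not stand apart by the same limit. Per plasma cell count, log2 Tnfsf13b was lowest in replicate 3 of 12 weeks (-9.18, others -7.93 to -7.33). Per macrophage count, log2 Tnfrsf13b was lowest in replicate 5 of 12 weeks (-4.64, others -4.13 to -3.85).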

How the results depend on the processing

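The strain differences of Tnfsf13b, Tnfrsf13b, Tnfrsf13c and Tnfrsf17 kept their direction in all alternatives run. DESeq2, voom with sample weights, the fits of only the groups compared and scaling to epithelium kept all 4 calls at both ages. With only the groups compared, Tnfrsf17 at 16 weeks was at the limit (edgeR adjusted p 0.05 after rounding) and Tnfrsf13c close to it (0.0486). Without a filter Tnfrsf13c lost its call at 12 weeks (adjusted p 0.0775). Members called ranged from 0 to 4 at 12 weeks and from 3 to 4 at 16 weeks over the fits without 1 library, and were 0 and 1 without the 4 libraries of neighbouring tissue. Genes called in all ranged from 259 to 1463 at 12 weeks, from 665 to 2596 at 16 weeks and from 1 to 9 between ages in MRL/lpr without 1 library. They were 24, 611 and 0 without the neighbouring tissue libraries. With voom they were 3515, 4864, 21 and, between ages in MRL/+, 1724, and with DESeq2 1665 at 12 weeks, 84 between ages in MRL/lpr and 10 in MRL/+. Between ages in MRL/lpr, 0 were called with only those groups, 1 with the replicate block and 1 with epithelium scaling. That scaling called 4943 genes at 16 weeks, moved the median of all genes to 0.28 and 0.52 at the 2 ages, and took the share of called genes that were higher from 78.9% and 76.3% to 98.3% and 99.1%. Relative to such medians the members' differences stayed above 0. Same-numbered replicates did not pair (median correlation of their deviations -0.20, 6 of 21 pairs over 0.1). With the replicate block Tnfrsf13c did not pass at 12 weeks (5.29, adjusted p 0.0656), no other member's call changed, and 1 gene was called between ages in MRL/lpr.

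Values that did not pass changed sign in some fits. The interaction of Tnfrsf17 was 0.054 with voom and that of Tnfsf13 0.25 without the neighbouring tissue libraries. Tnfsf13b per plasma cell count between ages was -0.0079 with an offset of 1 count, Tnfsf13b per macrophage count at 12 weeks -0.082 with all 12 markers, and Tnfsf13 per macrophage count between ages in MRL/lpr 0.068 with 1 marker. With all 12 markers, 3 macrophage ratios passed. Bcl2 at 12 weeks was -0.0089 with voom. Without 1 library, Tnfsf13 at 16 weeks ranged from -0.065 to 1.09, Bcl2 at 12 weeks from -0.060 to 0.081 and Sdc3 at 12 weeks from -0.23 to 1.3. Between ages, Tnfrsf13c ranged from -0.15 to 1.28 in MRL/lpr and Tnfrsf13b from -0.64 to 0.74 in MRL/+, and the interactions of Tnfrsf13b and Tnfsf13 from -0.24 to 1.14 and from -1.02 to 0.14. The ratio changes between ages in MRL/lpr ranged from -0.33 to 0.24 (Tnfsf13b to plasma cell), -0.21 to 0.60 (Tnfsf13 to B cell), -0.46 to 0.0033 (Tnfrsf17 to plasma cell) and -0.33 to 0.086 (Tnfsf13 to macrophage). The causes were not tested. MRL/+ libraries held 2 to 9 counts of Tnfrsf13b, 0 or 1 of Tnfrsf13c and 0 to 2 of Tnfrsf17, which limits every fold given against them.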
